A study of Mus musculus and Acomys cahirinus with 84 samples.

Results

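The retinoid genes described here are 9 members of the vitamin A pathway: the nuclear receptors Rxrg, Rxra, Rarb and Rarg, the carrier proteins Crabp1 and Crabp2, the retinoic acid synthesising dehydrogenases Aldh1a1 and Aldh1a3, and the retinoic acid hydroxylase Cyp26b1. They were chosen by symbol, and Rxrg led the choice because it had been seen at a high level in irradiated A. cahirinus cultures at 12 days. All 9 are among the 56980 gene identifiers of the mouse count table. The A. cahirinus table, with 19818 gene names, holds 8 of them. Aldh1a1 is not among its names.

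The study profiled polyadenylated RNA of cultures labelled primary skin fibroblasts from 3 populations: a laboratory mouse strain written C56BL6, mice labelled wild, and A. cahirinus, the African spiny mouse. In each population, cultures were left untreated or given 10 or 20 Gy of gamma radiation and collected after 24 h, and the same 3 groups were collected after 12 days together with a passaged culture given no dose. Each of the 21 groups had 4 replicates, giving 84 libraries. Within a population a replicate number carries 1 code in the library names at all doses and both times, so same-numbered libraries are taken as 1 animal. The batch label is B1 for the 24 h libraries and B2 for the 12-day libraries. A difference of time cannot be told apart from one of batch, and the times were not tested against each other. The library totals were 26.65 to 39.82 M counts for C56BL6, 17.42 to 35.98 M for wild mice and 25.55 to 52.86 M for A. cahirinus.

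All-trans retinoic acid is made from retinol by oxidation to retinal and then, by the Aldh1a enzymes, to the acid, and Cyp26 enzymes break it down. It acts through RAR receptors, which bind DNA as pairs with an RXR. RXRs also pair with other nuclear receptors, among them the PPARs, the thyroid hormone receptors and the vitamin D receptor. In skin the pathway acts on the growth and differentiation of keratinocytes and fibroblasts, and Rxrg, the RXR with the narrowest tissue range, is known from skeletal muscle and parts of the nervous system.

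The promoters of Rarb and Rxrg are shown because Rarb is the textbook direct target of the pathway and Rxrg is the gene that led the choice. RefSeq promoter sequences, from 250 bases before to 50 bases after a start site on the mouse build GRCm38.p6, were found for 7 of the 9 genes. Each window below ends at the base before the start site, is written 5′ to 3′ on the gene's strand, and has every receptor half-site (AGGTCA, or the form AGTTCA, or the form GGGTCA, or the form GGTTCA, on either strand) in capitals. The Rarb window lies at chr14:16575477-16575596 on the minus strand, and the windows of the Rxrg start sites at chr1:167598162-167598361 and chr1:167618065-167618264 on the plus strand. The spiny mouse genome was not used here.
Rarb: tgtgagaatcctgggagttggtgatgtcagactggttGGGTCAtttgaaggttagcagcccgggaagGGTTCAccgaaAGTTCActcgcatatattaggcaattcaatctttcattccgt
Rxrg start site 1: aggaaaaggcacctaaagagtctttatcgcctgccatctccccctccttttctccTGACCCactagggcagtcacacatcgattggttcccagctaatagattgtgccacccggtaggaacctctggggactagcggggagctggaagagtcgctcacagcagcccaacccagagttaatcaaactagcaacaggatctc
Rxrg start site 2: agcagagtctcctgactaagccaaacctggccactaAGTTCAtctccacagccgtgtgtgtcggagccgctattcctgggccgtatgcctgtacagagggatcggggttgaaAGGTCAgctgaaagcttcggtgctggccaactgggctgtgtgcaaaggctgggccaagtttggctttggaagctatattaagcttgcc

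The Rarb window holds a DR5 element, a direct repeat of the half-site with 5 bases between the copies, at positions -53 to -37 from the start site. This is the retinoic acid response element for which Rarb is known. DR5 elements were found in 0.0975% of 32817 promoter windows of 300 bases, DR2 elements in 0.268% and DR1 elements in 0.222%, searched on both strands. None of the 3 was found in the windows of the other 6 genes with a sequence. The Rxrg windows held 1 and 2 single half-sites, a motif found in 43.7% of all windows of 300 bases, which are longer than the 200 bases shown.

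Rxrg encodes the gamma member of the retinoid X receptors. In A. cahirinus it lies on AcoCah2 chromosome 5 from 25994061 to 26036257, and in the mouse on GRCm39 chromosome 1 from 167425953 to 167467192. Levels between libraries are given as CPM, read counts relative to the library total as scaled by the TMM normalisation. Irradiation 12 days earlier went with a high Rxrg level in A. cahirinus, while no mouse library exceeded 0.254 CPM. In the untreated 12-day cultures of A. cahirinus, replicates 1 to 4 had 0.711, 0.322, 0.586 and 0.317 CPM. After 10 Gy the values were 9.02, 0.837, 5.31 and 2.81 CPM, and after 20 Gy they were 24.02, 1.07, 29.3 and 9.51 CPM. Every irradiated library was above every untreated library, and replicate 2 was the lowest at both doses. Within the animals, the level after 20 Gy was 33.8, 3.32, 49.9 and 30 times the untreated level. After 10 Gy the same ratios were 12.7, 2.6, 9.05 and 8.87. The fitted log2 fold changes against untreated were 5.07 (SE 0.95) for 20 Gy and 3.21 (SE 0.68) for 10 Gy. These values chose the gene, so they are a description and carry no test. Without replicate 2 the fitted change after 20 Gy was 5.32 (SE 0.51).

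The passaged 12-day cultures of A. cahirinus had 0.811, 0.244, 0.907 and 0.141 CPM of Rxrg, overlapping the untreated ones. Passaged replicate 3 also lay above replicate 2 after 10 Gy (0.837 CPM), so these groups overlapped. All libraries given 20 Gy, the lowest at 1.07 CPM, lay above the passaged ones. At 24 h the 12 A. cahirinus libraries lay between 0.0904 and 0.786 CPM, with no dose group apart from another. Rxrg did not pass the threshold of an adjusted p of 0.05 at 24 h by edgeR's quasi-likelihood test with Benjamini-Hochberg adjustment, with adjusted p = 0.83 after 10 Gy and adjusted p = 0.923 after 20 Gy. A total of 3 counts corresponds to 0.0568 to 0.1174 CPM in these libraries, so the lowest values rest on few counts.

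Mouse cultures held next to no Rxrg. No count was found in the 12 C56BL6 libraries at 24 h, where 3 counts would be 0.0753 to 0.1126 CPM, nor in the C56BL6 passaged cultures. The untreated C56BL6 cultures at 12 days had 0, 0.035, 0.254 and 0.221 CPM, and those given 20 Gy had 0.0278, 0.0265, 0.0828 and 0.0731 CPM. Of the 28 wild mouse libraries, 3 held a count, with 0.0562 CPM as the highest value. Rxrg did not pass the filter on low counts in any comparison within a mouse population, so no mouse change was tested.

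**Figure D1:**
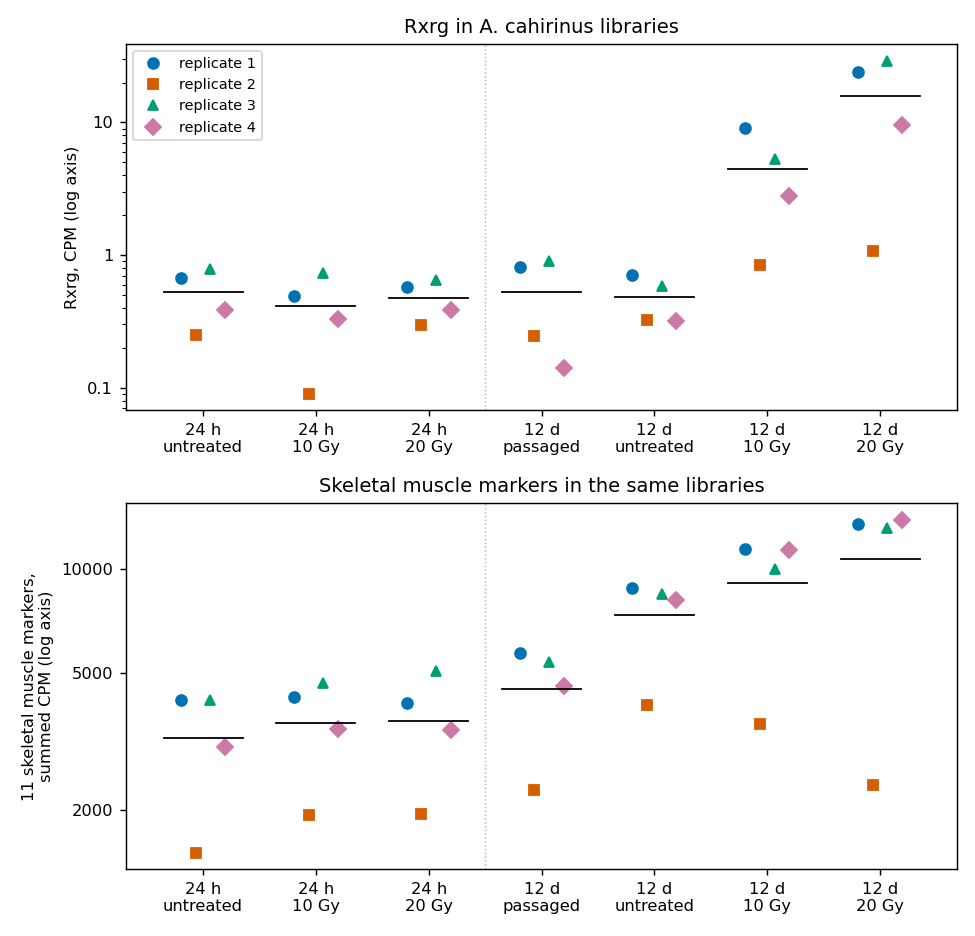
Rxrg (upper) and the sum of 11 skeletal muscle marker genes (lower) in the 28 A. cahirinus libraries, in CPM on log axes, by time and treatment; each point is 1 library, shape and colour give the replicate number (1 animal) and bars are group means. Rxrg is below 1 CPM in all libraries without irradiation and in all 24 h libraries, and reaches 9.51 to 29.3 CPM in replicates 1, 3 and 4 after 20 Gy; the muscle marker sum is lowest in replicate 2 in every group.

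The labelled cell type was checked against marker lists. Fibroblast markers (Col1a1, Col1a2, Col3a1, Pdgfra, Pdgfrb, Dcn, Lum, Thy1, Fbln1) summed to 16851 to 32793 CPM in A. cahirinus. The A. cahirinus libraries also held skeletal muscle RNA, against the label: all 11 muscle markers were detected, with a sum of 1509 to 13879 CPM, against 8.99 to 314.7 CPM in C56BL6. Myod1, the master regulator of the muscle lineage, had 29.98 to 182.7 CPM in A. cahirinus, and was at most 0.132 CPM in C56BL6 and 0.0683 CPM in wild mice. Myog, a regulator of muscle cell differentiation, had 167.5 to 1013.0 CPM and Myh3, the embryonic myosin heavy chain, 309.8 to 4980.5 CPM, while both stayed below 1 CPM in all mouse libraries. Wild mouse libraries reached a muscle marker sum of 2225 CPM through Des and Acta1, with Myod1, Myog and Myh3 near 0.

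The sum of the muscle markers is given here beside Rxrg. In the untreated 12-day cultures of A. cahirinus it was 8827, 4038, 8493 and 8147 CPM for replicates 1 to 4. After 20 Gy it was 13491, 2375, 13112 and 13879 CPM, and after 10 Gy 11444, 3564, 10022 and 11336 CPM. The sum was thus higher than untreated in replicates 1, 3 and 4 and lower in replicate 2, the animal with the lowest Rxrg after both doses. The sum is carried by Acta1, the skeletal muscle actin, and Myh3, with means of 2214.8 and 2613.3 CPM untreated and 3918.1 and 3779.3 CPM after 20 Gy. The means of Myod1, Myog, Des, Myh8, Chrna1 and Tnnt3 were also higher after 20 Gy, from Des (1100.0 and 1132.6 CPM) to Myh8 (71.91 and 161.7 CPM). The remaining markers in the sum went the other way. Pax7, a transcription factor of muscle stem cells, had a mean of 64.25 CPM untreated and 21.75 CPM after 20 Gy. Myf5, an early muscle regulator, had 54.12 and 17.43 CPM, and Ckm, the muscle creatine kinase, 2.31 and 2.02 CPM. Untreated replicates 1, 3 and 4 had muscle marker sums of 8147 to 8827 CPM beside an Rxrg of 0.317 to 0.711 CPM. Among the libraries given 20 Gy, replicate 4 had the highest muscle marker sum and the third highest Rxrg. The part of the muscle markers in the Rxrg values was not tested, and in bulk RNA fewer cells of a type and less RNA per cell cannot be told apart. The markers of Schwann cells and melanocytes summed to 34.95 to 94.26 CPM over all A. cahirinus libraries and to 44.95 to 64.39 CPM after 20 Gy at 12 days. Mbp, a myelin protein, makes up most of that sum, with means of 41.30 CPM untreated and 39.16 CPM after 20 Gy. S100b of the same list had 0.893 to 1.49 CPM untreated and 1.96 to 7.88 CPM after 20 Gy, and the endothelial markers summed to 0.586 to 1.9 CPM and 2.79 to 4.83 CPM, neither with overlap. The adipocyte markers, mostly Lep, summed to 15.47 to 21.27 CPM untreated and 21.95 to 46.10 CPM after 20 Gy. The immune markers summed to 1.62 to 2.42 CPM and 3 to 5.61 CPM, so neither of these sums overlapped. The sums of the other marker lists did. The part of these markers in the Rxrg values was not tested.

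The 5 genes whose pattern was most like that of Rxrg, by Pearson's r of log2 CPM over the 28 A. cahirinus libraries after subtracting each time's mean, were Col22a1 (r = 0.96), Gm4841 (0.95), Mab21l4 (0.94), Mustn1 (0.94) and Inpp5j (0.93), out of 13902 genes. Col22a1 encodes a collagen chain found at tissue junctions such as that of muscle and tendon, and Inpp5j a phosphoinositide phosphatase. After 20 Gy at 12 days Col22a1 had 27.1, 1.41, 39.8 and 11.1 CPM, against 0.643, 0.234, 0.31 and 0.202 CPM untreated, so replicate 2 was again the lowest. Mustn1 had 1007.2, 126.8, 910.8 and 641.6 CPM, against 208.5, 81.59, 158.7 and 106.7 CPM untreated, with replicate 2 the lowest in both. It was at most 45.68 CPM in C56BL6 and 94.55 CPM in wild mice. Among the other retinoid genes r ran from -0.82 for Rarg and -0.68 for Crabp1 to 0.64 for Rxra and 0.67 for Crabp2. These values are a description; the libraries come from 4 animals and share their treatments.

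Rxra encodes the widely expressed RXR and was called in C56BL6 against untreated cultures, where it was lower, and in A. cahirinus against passaged cultures, where it was higher. In C56BL6 at 12 days, untreated cultures had 103.6, 139.4, 152.8 and 163.8 CPM. Cultures given 20 Gy had 73.3, 97.4, 95.2 and 95.8 CPM, those given 10 Gy 75.4, 94.4, 96.6 and 98.3 CPM, and passaged ones 75.6, 79.1, 96.2 and 96.2 CPM. Every library of these 3 groups was below every untreated one. Rxra fell by 0.62 on the log2 scale after 20 Gy (SE 0.15, edgeR adjusted p = 0.0213, lower in 4 of 4 animals). It fell by 0.60 after 10 Gy (adjusted p = 0.0267 by edgeR) and by 0.68 with passage (adjusted p = 0.0074 by edgeR). These 3 comparisons share the untreated libraries, which also had the highest fibroblast marker sums of C56BL6 at that time (26023 to 47712 CPM, against 8116 to 12247 CPM after 20 Gy) and the highest adipocyte marker sums (179.6 to 675.2 CPM, against 29.71 to 102.2 CPM). The part of these markers in Rxra was not tested. The call after 20 Gy was lost without replicate 2, 3 or 4 (edgeR adjusted p up to 0.119), and that after 10 Gy likewise (up to 0.151). The call with passage was lost without replicate 2 (edgeR adjusted p = 0.0528). With the animal as a block all 3 held, with edgeR adjusted p = 0.000823, adjusted p = 0.00115 and adjusted p = 0.000919 in this order.

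In A. cahirinus at 12 days Rxra was 45.7, 39.4, 49.1 and 42.7 CPM after 20 Gy and 31.8, 29.5, 31.4 and 33.95 CPM in the passaged cultures, with no overlap. It rose by 0.51 on the log2 scale (SE 0.09, edgeR adjusted p = 0.0031, higher in 4 of 4 animals), and the call held without any 1 replicate. Untreated cultures, at 36.4, 41.3, 32.98 and 36.3 CPM, overlapped both, and the difference of the 20 Gy cultures from them, 0.29 on the log2 scale, is a description. The comparison with passaged cultures shares the 20 Gy libraries that chose Rxrg. In wild mice Rxra had no called change at 12 days, with log2 fold changes of -0.22 after 20 Gy (SE 0.17, edgeR adjusted p = 0.642) and -0.27 after 10 Gy (SE 0.15, edgeR adjusted p = 0.537).

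Rarb encodes retinoic acid receptor beta, whose promoter carries the DR5 element shown above. It was low in every population, at most 9.7 CPM. In C56BL6 at 12 days it was 0.48, 0.105, 0.191 and 0.0946 CPM untreated and 0.762, 1.58, 0.432 and 0.377 CPM in passaged cultures. It rose by 1.87 on the log2 scale with passage (SE 0.65, edgeR adjusted p = 0.0425, 4 of 4 animals), although the groups overlapped. The call was lost without replicate 2, 3 or 4 (edgeR adjusted p up to 0.234) and with no filter on low counts (adjusted p = 0.0651). It held with the animal as a block (1.80, edgeR adjusted p = 0.0277). After 20 Gy the log2 fold change of 1.48 did not pass (edgeR adjusted p = 0.0876) but did with the animal as a block (adjusted p = 0.0371). After 10 Gy the same held for 1.26, with edgeR adjusted p = 0.174 and, with the block, adjusted p = 0.043.

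Between wild animals Rarb differed more than between treatments. At 24 h wild replicates 1 to 4 had 8.69, 0.479, 3.95 and 0.283 CPM untreated and 9.7, 0.89, 4.08 and 0.732 CPM after 20 Gy. Replicates 1 and 3 were the high ones and also held the highest muscle marker sums of the untreated group, 1423 and 584.3 CPM. At 12 days untreated replicate 1 had 0.0914 CPM and a muscle marker sum of 10.19 CPM, and replicate 3 had 4.21 CPM and a sum of 141.6 CPM. The part of the muscle markers in Rarb was not tested. The wild 24 h library of replicate 1 given 10 Gy stood apart from the other 24 h libraries of that animal with 0.645 CPM of Rarb, beside a muscle marker sum of 2225 CPM.

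Rarg encodes retinoic acid receptor gamma, the main RAR of skin. Among the receptors listed here it had the highest mean per-length level in untreated cultures of all 3 populations. In A. cahirinus at 12 days it was 83.04, 103.2, 84.1 and 93.2 CPM untreated and 85.01, 89.5, 90.1 and 84.0 CPM in passaged cultures. After 10 Gy it was 58.02, 66.6, 56.6 and 54.9 CPM, and after 20 Gy 45.9, 54.8, 47.2 and 52.9 CPM. All 8 irradiated libraries were below all 8 libraries without irradiation. Rarg fell by 0.77 on the log2 scale after 20 Gy against passaged cultures (SE 0.08, edgeR adjusted p = 0.000331, lower in 4 of 4 animals), with no call lost when 1 replicate was left out. Against untreated cultures the difference was -0.84 (SE 0.10) after 20 Gy and -0.61 (SE 0.12) after 10 Gy, given as a description. In C56BL6 the same 12-day comparisons gave -0.06 (SE 0.08) against passaged and -0.01 (SE 0.13) against untreated cultures, and in wild mice -0.13 (SE 0.14) and -0.08 (SE 0.15), with no call by edgeR (adjusted p from 0.603 to 0.965). The difference between the populations in this response was not tested.

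**Figure D2:**
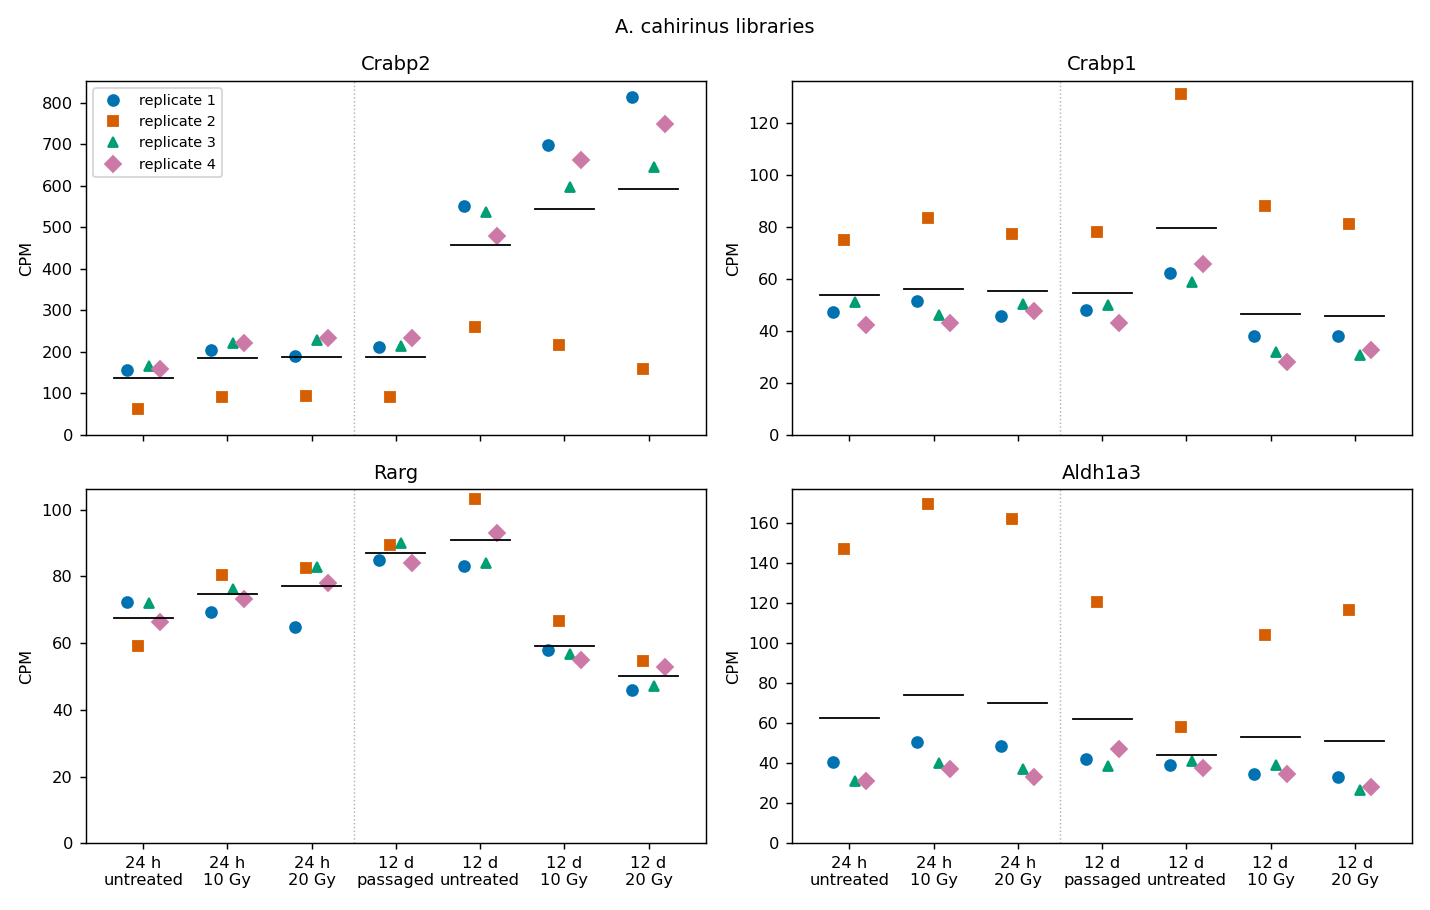
Crabp2, Crabp1, Rarg and Aldh1a3 in the 28 A. cahirinus libraries, in CPM on linear axes from 0, by time and treatment; points are libraries, shape and colour give the replicate number and bars are group means. Replicate 2 is the lowest in Crabp2 and the highest in Crabp1 and Aldh1a3 in all 7 groups, and Rarg is at 45.9 to 66.6 CPM in the irradiated 12-day libraries against 83.04 to 103.2 CPM in the others of that time.

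Crabp2 encodes the carrier that hands retinoic acid to RARs in the nucleus, and in A. cahirinus it was the most abundant of the retinoid genes. Per length and depth it reached 1319 ± 386 TPM (transcripts scaled per length and depth, SD, n = 4) in untreated cultures at 12 days and 394.6 ± 140.4 TPM at 24 h. It was 12.76 ± 4.16 TPM in untreated C56BL6 and 29.15 ± 33.54 TPM in untreated wild cultures at 12 days (SD, n = 4), values set across 2 tables counted on different annotations and so given with no test. In A. cahirinus at 12 days it was 551.1, 260.4, 537.2 and 478.0 CPM untreated and 210.9, 92.7, 214.4 and 233.6 CPM in passaged cultures. Crabp2 fell by 1.30 on the log2 scale with passage (SE 0.31, edgeR adjusted p = 0.0185, lower in 4 of 4 animals). After 20 Gy it was 814.4, 159.9, 645.7 and 747.7 CPM, and against passaged cultures it rose by 1.68 (SE 0.49, edgeR adjusted p = 0.0241, higher in 4 of 4 animals), although the 159.9 CPM of replicate 2 lay within the passaged range. Both calls were lost without replicate 1, 3 or 4 (edgeR adjusted p up to 0.112 and 0.118), and the first also with all groups of that time in 1 fit (adjusted p = 0.0697). In wild mice Crabp2 moved the same ways in 4 of 4 animals, without a call. The log2 fold changes were -2.28 with passage (edgeR adjusted p = 0.112) and 1.85 for 20 Gy against passaged cultures (adjusted p = 0.0835). The second passed with the animal as a block (1.59, edgeR adjusted p = 0.00728). In C56BL6 they were 0.10 and 0.17, with no call.

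Crabp2 stood beside the muscle markers in every group of A. cahirinus: replicate 2 was the lowest in both. The passaged cultures had muscle marker sums of 5697, 2299, 5377 and 4572 CPM, below the untreated ones in each animal. The part of the muscle markers in the Crabp2 values was not tested. At 24 h Crabp2 was 157.7, 63.4, 165.9 and 159.7 CPM untreated, 204.0, 91.1, 220.5 and 221.8 CPM after 10 Gy and 189.6, 94.1, 229.7 and 233.5 CPM after 20 Gy. It was higher in 4 of 4 animals at each dose, and passed only with the animal as a block, with log2 fold changes of 0.47 (edgeR adjusted p = 1.4e-05) and 0.49 (adjusted p = 0.00033). Without the block edgeR gave adjusted p = 0.567 and adjusted p = 0.53, and without replicate 2 adjusted p = 0.00783 and adjusted p = 0.0282.

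Among C56BL6 mice Crabp2 was high in 1 animal at 24 h. Replicate 1 had 10.9 CPM untreated against 0.603, 0.537 and 1.1 CPM in replicates 2 to 4. Replicate 1 was also the C56BL6 animal with keratinocyte markers: their sum of 8 genes was 461.0 CPM untreated at 24 h, against 1.49 to 1.9 CPM in the others, and 934.3 CPM against 1.46 to 1.92 CPM at 12 days. Untreated at 12 days its 5.38 CPM of Crabp2 lay within the 2.8 to 6.18 CPM of the others. Crabp2 is a known keratinocyte gene, and the part of these markers in its values was not tested.

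Crabp1 encodes the related cytoplasmic carrier that limits the retinoic acid reaching the nucleus. It was lower in wild than in C56BL6 mice. Untreated at 24 h it was 2.09, 1.25, 0.718 and 0.723 CPM in wild and 17.5, 16.8, 5.08 and 6.19 CPM in C56BL6 cultures, a log2 difference of -3.25 (SE 0.56, edgeR adjusted p = 0.0148). Untreated at 12 days it was 1.05, 4.24, 2.02 and 1.37 CPM against 16.3, 18.2, 19.4 and 15.2 CPM, a log2 difference of -2.99 (SE 0.43, edgeR adjusted p = 0.00899). The groups did not overlap at either time. The 24 h call was lost without replicate 2, 3 or 4 (edgeR adjusted p up to 0.0988) and the 12-day call without replicate 3 or 4 (up to 0.0986).

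In C56BL6 at 12 days Crabp1 also fell after 20 Gy, to 7.52, 12.9, 8.08 and 10.3 CPM, by 0.82 on the log2 scale (SE 0.18, edgeR adjusted p = 0.0131, lower in 4 of 4 animals), beside the same lower fibroblast and adipocyte marker sums, whose part was not tested. After 10 Gy it was 16.7, 14.2, 13.04 and 18.8 CPM, overlapping the untreated cultures (log2 fold change -0.12, SE 0.13, edgeR adjusted p = 0.551). The 20 Gy call was lost without replicate 3 or 4, with edgeR adjusted p = 0.101 and adjusted p = 0.0554. It was also lost with all groups of that time in 1 fit (edgeR adjusted p = 0.101). It held with the animal as a block (-0.84, edgeR adjusted p = 0.00468). In A. cahirinus at 12 days Crabp1 was 62.05, 130.8, 58.9 and 65.9 CPM untreated and 38.2, 80.9, 30.9 and 32.8 CPM after 20 Gy, lower in 4 of 4 animals, a log2 difference of -0.78 (SE 0.38) that is a description. With passage the log2 fold change was -0.56 (edgeR adjusted p = 0.216), and -0.51 with the animal as a block (adjusted p = 0.00168). In wild mice passage gave -1.60 (edgeR adjusted p = 0.101), and -1.55 with the block (adjusted p = 0.00563). For 20 Gy against passaged wild cultures the change was 1.91 (edgeR adjusted p = 0.068), and 1.85 with the block (adjusted p = 0.011). In C56BL6 these 2 comparisons gave -0.04 and -0.81, with no call.

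Aldh1a1 encodes a retinal dehydrogenase that makes retinoic acid, and in both mouse populations it was lower in passaged than in untreated 12-day cultures. Its reads may be shared in part with the near-identical neighbour Aldh1a7, which makes its values uncertain. In C56BL6 it was 214.9, 290.5, 216.0 and 228.5 CPM untreated at 12 days and 56.5, 153.0, 84.0 and 87.7 CPM in passaged cultures. It fell by 1.31 on the log2 scale with passage (SE 0.28, edgeR adjusted p = 0.00567, lower in 4 of 4 animals). After 20 Gy it was 157.8, 309.7, 274.1 and 307.5 CPM, 1.44 above passaged cultures (SE 0.32, edgeR adjusted p = 0.00816, higher in 4 of 4 animals) and overlapping the untreated ones (0.15, SE 0.21, edgeR adjusted p = 0.628). The call against passaged cultures after 20 Gy was lost without replicate 3 or 4 (edgeR adjusted p up to 0.0604). It held with the animal as a block (1.48, edgeR adjusted p = 8.51e-05).

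Wild mice gave the same 2 directions. Aldh1a1 was 43.98, 26.4, 69.2 and 37.2 CPM untreated at 12 days, 19.02, 15.2, 16.7 and 17.6 CPM in passaged cultures and 39.6, 37.6, 71.85 and 33.9 CPM after 20 Gy. It fell by 1.37 with passage (SE 0.27, edgeR adjusted p = 0.0255) and was 1.44 higher after 20 Gy than in passaged cultures (SE 0.24, edgeR adjusted p = 0.012), in 4 of 4 animals each. The first call was lost without replicate 1 or 4 and the second without replicate 1, 2 or 4 (edgeR adjusted p up to 0.186 and 0.0933). Both held with the animal as a block (edgeR adjusted p = 0.00835 and adjusted p = 0.00134). Untreated wild cultures held less Aldh1a1 than untreated C56BL6 cultures, by a log2 difference of -2.51 at 24 h (SE 0.31, edgeR adjusted p = 0.00281) and -2.43 at 12 days (SE 0.29, edgeR adjusted p = 0.00342), with no overlap at either time. The 12-day difference was lost without replicate 4 (edgeR adjusted p = 0.066).

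**Figure D3:**
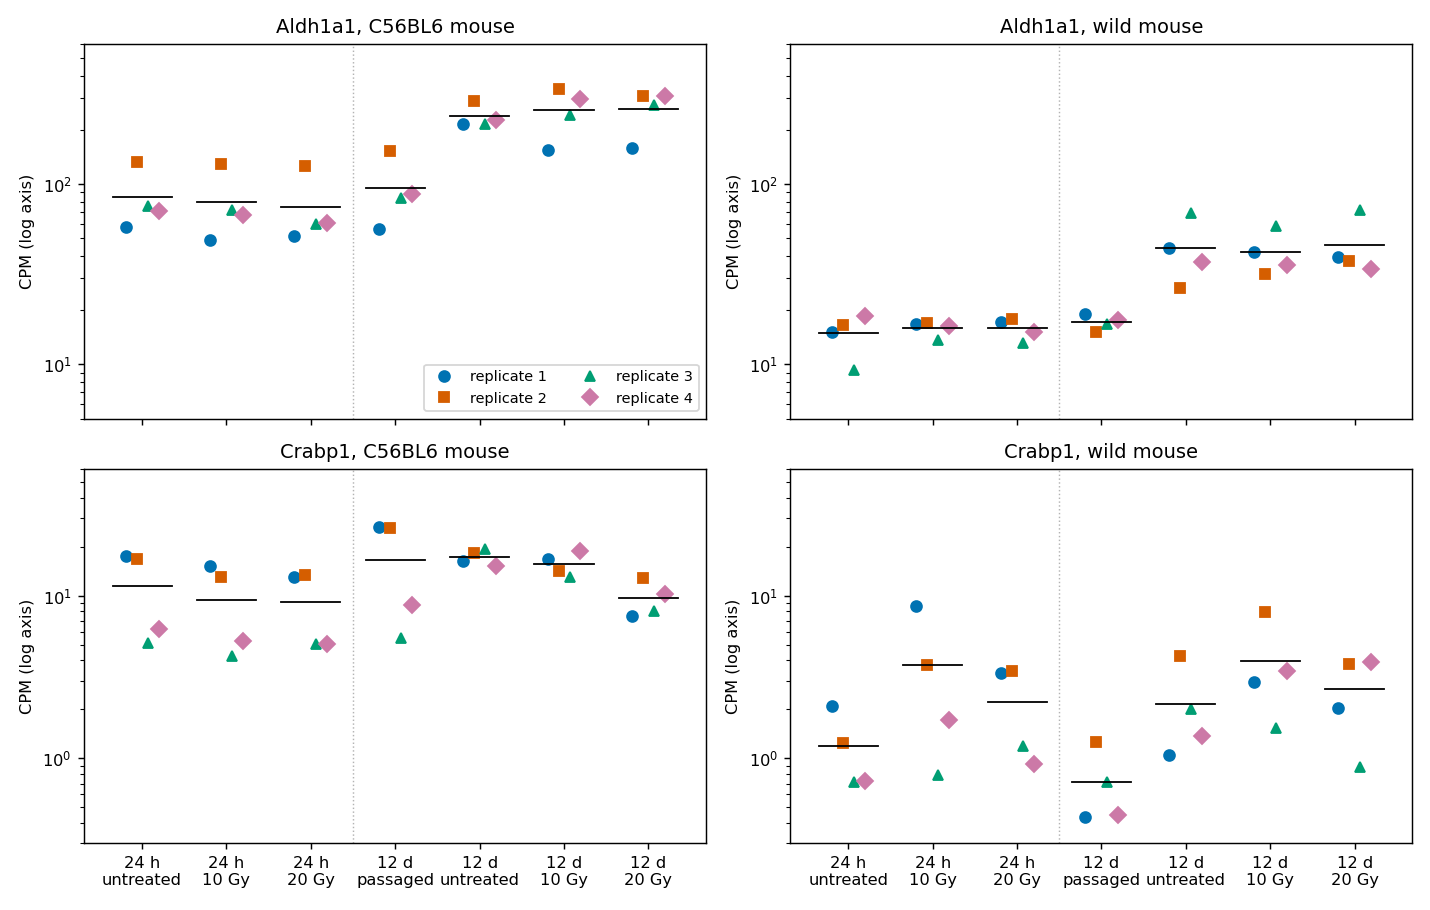
Aldh1a1 (upper) and Crabp1 (lower) in the 56 mouse libraries, C56BL6 on the left and wild on the right, in CPM on log axes that are the same within a row; points are libraries, shape and colour give the replicate number within each population and bars are group means. Passaged cultures lie at 15.2 to 19.02 CPM of Aldh1a1 in wild mice and 56.5 to 153.0 CPM in C56BL6, below the untreated cultures of the same time, and wild untreated libraries lie below C56BL6 untreated libraries of the same time for both genes.

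Aldh1a3 encodes a further retinal dehydrogenase and differed between animals. In A. cahirinus replicate 2 was the highest in all 7 groups, with 58.3 CPM untreated at 12 days against 39.1, 41.05 and 37.8 CPM, and 116.2 CPM after 20 Gy against 33.1, 26.6 and 27.97 CPM. Without the block 20 Gy against passaged cultures gave a log2 fold change of -0.26 (edgeR adjusted p = 0.736); with the animal as a block it fell by 0.39 (adjusted p = 0.0255), and without replicate 2 by 0.52 (adjusted p = 0.00414). In wild mice at 12 days it was 43.8, 10.4, 0.202 and 76.3 CPM untreated and 21.4, 7.13, 0.185 and 21.7 CPM after 20 Gy, lower in 4 of 4 animals. That change passed only with the block, after 20 Gy (-1.07, edgeR adjusted p = 0.0255) and after 10 Gy (-1.05, adjusted p = 0.0236), and with passage it gave -2.83 with the block (adjusted p = 0.0112). Wild replicate 3, at 0.202 CPM, had a fibroblast marker sum of 11467 CPM untreated, against 49423 to 85305 CPM in the other wild animals, whose part was not tested.

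Cyp26b1 encodes an enzyme that clears retinoic acid. In C56BL6 at 12 days it was 32.97, 7.2, 15.2 and 8.8 CPM untreated, 55.6, 34.3, 32.3 and 31.99 CPM after 10 Gy and 78.1, 40.1, 37.7 and 36.2 CPM after 20 Gy. It rose by 1.60 on the log2 scale after 20 Gy (SE 0.50, edgeR adjusted p = 0.0483, higher in 4 of 4 animals), and replicate 1, with the keratinocyte markers, was the highest in each group. Leaving out replicate 1 gave adjusted p = 0.00188 by edgeR, and leaving out replicate 2, 3 or 4 ended the call (up to 0.159). The call held with the animal as a block (1.76, edgeR adjusted p = 0.00114). After 10 Gy the change of 1.29 did not pass (edgeR adjusted p = 0.0875) and did with the animal as a block (1.48, adjusted p = 0.00194), with DESeq2 (adjusted p = 0.0293) and with all groups of that time in 1 fit (edgeR adjusted p = 0.0408). Passaged C56BL6 cultures, given no dose, had 20.69 to 42.37 CPM. Their change against untreated was 1.08 (edgeR adjusted p = 0.0956), and 1.28 with the block (adjusted p = 0.0241). For 20 Gy against passaged cultures Cyp26b1 was not called (0.50, SE 0.31, edgeR adjusted p = 0.231). In A. cahirinus at 24 h it was lower in 4 of 4 animals at both doses, and passed only with the block (-0.29 after 10 Gy, edgeR adjusted p = 0.0126, and -0.49 after 20 Gy, adjusted p = 0.00455).

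The counts of called retinoid genes are read here against the share of all tested genes called in the same comparison. In C56BL6 at 12 days 3 of 8 tested genes were called after 20 Gy (26.5% of all genes called), 1 of 8 after 10 Gy (20.9%), 3 of 8 with passage (49.6%) and 1 of 8 between 20 Gy and passaged cultures (41.6%). In wild mice at 12 days 1 of 8 was called with passage (10.7%) and 1 of 8 between 20 Gy and passaged cultures (10.5%), and none after 10 Gy (0.264%) or 20 Gy (0.0694%). In A. cahirinus at 12 days, leaving out Rxrg, 1 of 7 was called with passage (25.8%) and 3 of 7 between 20 Gy and passaged cultures (42.5%). Against untreated cultures, the contrasts that chose Rxrg, 1 of 7, Rarg, lay past the threshold at each dose (2.87% of all genes after 10 Gy and 31.8% after 20 Gy), and nothing is read from these. Between untreated wild and C56BL6 cultures 2 of 8 were called at 24 h (5.7%) and 2 of 7 at 12 days (2.93%), Crabp1 and Aldh1a1 both times.

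The median log2 fold change of the tested retinoid genes was 0.51 for 20 Gy against passaged cultures in A. cahirinus, 0.10 in C56BL6 and 0.77 in wild mice. All genes tested had medians of 0.01, 0.01 and 0.02 there. For 20 Gy against untreated cultures at 12 days it was 0.07 in C56BL6, -0.10 in wild mice and, as a description, 0.29 in A. cahirinus. With passage it was -0.29 in A. cahirinus, -0.01 in C56BL6 and -0.85 in wild mice. All genes tested had medians from -0.03 to 0.00 in these comparisons. In the 24 h fits without the animal as a block no retinoid gene was called in any population after either dose. Among all genes tested in these fits the called share was 0.0895% in C56BL6 after 20 Gy and 0.007% after 10 Gy. It was 0% in wild mice at both doses, and 3.59% and 3.73% in A. cahirinus.

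With the animal as a block the 24 h counts changed. In C56BL6 after 20 Gy 7 of 8 genes then passed (17.6% of all genes): Rarb, Crabp2 and Cyp26b1 rose and Rxra, Rarg, Crabp1 and Aldh1a1 fell, with log2 fold changes from -0.28 to 0.87 and adjusted p from 0.00777 to 0.0441 by edgeR. Each moved the same way in 4 of 4 animals, while for all 7 the groups overlapped. After 10 Gy 2 of 8 passed (11.5%), Rarb and Crabp2. In wild mice 3 of 8 passed after 20 Gy (12.5%), Crabp1, Aldh1a3 and Cyp26b1, all higher, and none after 10 Gy (0%). The wild 10 Gy group holds the replicate 1 library that stood apart, the smallest of all with 17.42 M counts. Its part in the difference between the doses was not tested. In A. cahirinus 3 of 8 passed at each dose (27.6% and 24.1%): Crabp2 and Aldh1a3 rose and Cyp26b1 fell.

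At 12 days the block changed the counts to 3 of 8 after 10 Gy (38.8%), 4 of 8 after 20 Gy (47.5%), 4 of 8 with passage (60.1%) and 2 of 8 for 20 Gy against passaged cultures (56.1%) in C56BL6. In wild mice it gave 1 of 8 after 10 Gy (12.7%), 1 of 8 after 20 Gy (15.4%), 3 of 8 with passage (31.9%) and 4 of 8 for 20 Gy against passaged cultures (38%). In A. cahirinus it gave 4 of 7 with passage (49.5%) and 6 of 7 for 20 Gy against passaged cultures (56%), where Rxra, Rarb, Crabp2 and Cyp26b1 rose and Rarg and Aldh1a3 fell.

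**Figure D4:**
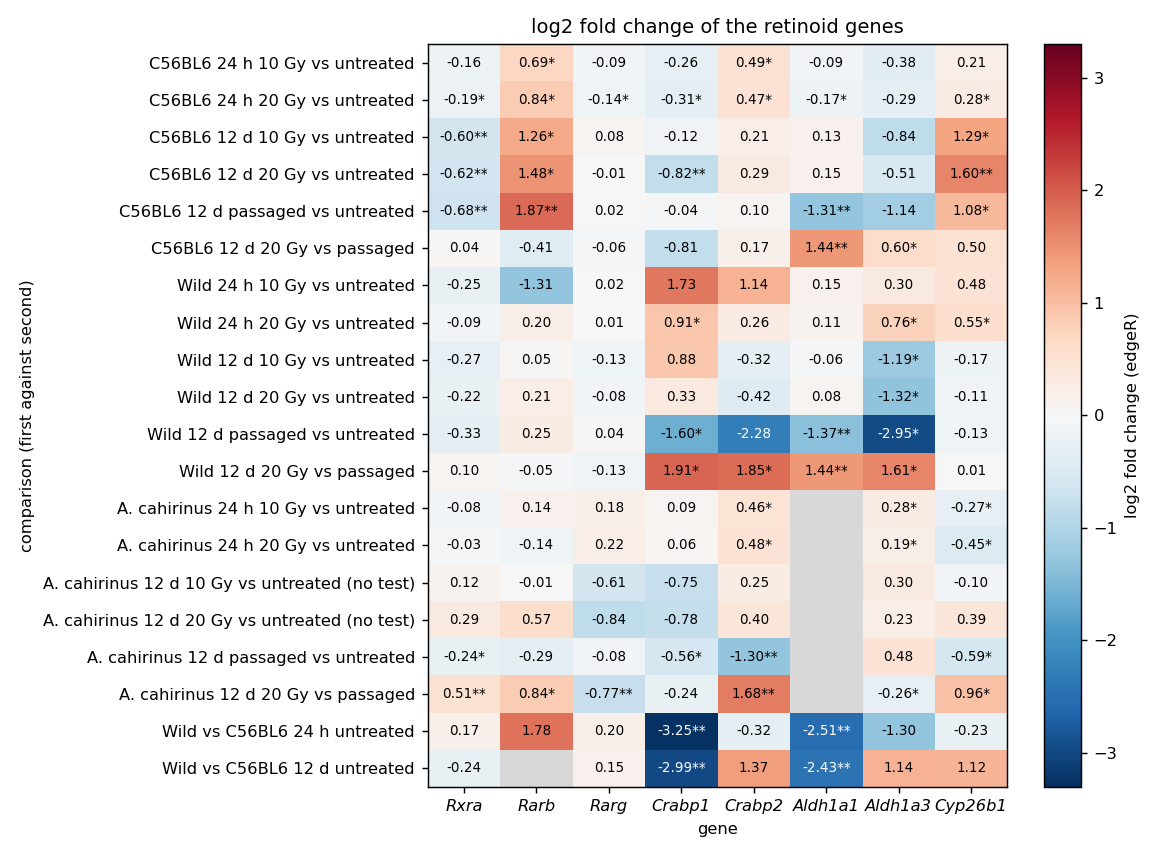
log2 fold changes of 8 retinoid genes (columns; Rxrg is plotted by library elsewhere) in the 20 comparisons within and between populations (rows), by edgeR; colour and printed value give the change of the first group against the second, 2 stars an adjusted p under 0.05, 1 star an adjusted p under 0.05 only with the animal as a block, and grey no fit. The largest values past the test are the lower Crabp1 and Aldh1a1 of wild against C56BL6 mice, from -3.25 to -2.43. The rows marked as untested are the contrasts in which Rxrg, the gene that led the choice, was seen to be high.

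Differences between populations in a response were tested as interactions, all over the 18109 symbols found in both tables, so that Aldh1a1 was tested in none of them. None of the retinoid genes passed for 20 Gy at 24 h in A. cahirinus against C56BL6 (2.09% of all genes called) or against wild mice (0%), for 20 Gy at 12 days in wild against C56BL6 mice (0%), or for passage in A. cahirinus against C56BL6 (27.7%) or wild mice (3.46%). With the animal as a block, Cyp26b1 after 20 Gy at 24 h was lower in A. cahirinus relative to C56BL6, by a log2 difference of -0.75 (edgeR adjusted p = 0.000325), and relative to wild mice, by -1.24 (adjusted p = 0.0159). The blocked counts, leaving out Rxrg, which passed the filter on low counts only through A. cahirinus, were 5 of 7 (16.8%) and 3 of 7 (7.25%) for these, 0 of 7 for wild against C56BL6 mice at 12 days (0.0692%), and 4 of 7 (45.2%) and 2 of 7 (23.8%) for passage.

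Of 63 further genes of retinoid uptake, conversion, signalling and response, 12 of 51 tested were called in C56BL6 after 20 Gy at 12 days, 4 higher and 8 lower, with a median log2 fold change of -0.13. That is 23.5% of the list, beside 26.5% of all genes. Rarres2, a retinoid-responsive gene that encodes the secreted chemerin, fell from 23.03, 8.15, 47.7 and 37.4 CPM untreated to 5.04, 1.14, 5.85 and 5.92 CPM (log2 fold change -2.68, SE 0.64, edgeR adjusted p = 0.0185). Adh1, an alcohol dehydrogenase that oxidises retinol, fell by 2.36 (adjusted p = 0.0226 by edgeR), and Gprc5a, a retinoic acid-induced receptor, rose by 2.06 (adjusted p = 0.00537 by edgeR). The call of Rarres2 was lost without replicate 3 or 4 (edgeR adjusted p up to 0.0988) and that of Adh1 without replicate 2, 3 or 4 (up to 0.0869). That of Gprc5a held without any 1 replicate. With the animal as a block the calls of Rarres2 and Adh1 held (edgeR adjusted p = 0.000141 and adjusted p = 0.0127). The part of the fibroblast and adipocyte markers, higher in the same untreated cultures as given above for Rxra, was not tested in these changes. With passage and no dose Adh1 had a log2 fold change of -4.41 (edgeR adjusted p = 0.00122). That of Gprc5a was 2.89 (edgeR adjusted p = 0.000979). Against passaged cultures 20 Gy gave 2.02 for Adh1 (edgeR adjusted p = 0.000466) and 3.81 for Rarres2 (edgeR adjusted p = 0.00191). The direction of Adh1 and Rarres2 after 20 Gy thus depended on the control used.

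With passage in C56BL6, 23 of 49 genes of that list were called, 10 higher and 13 lower (46.9% of the list, beside 49.6% of all genes), where Rarres2 fell by 6.52 on the log2 scale (edgeR adjusted p = 0.000372). In wild mice 6 of 49 were called with passage, 2 higher and 4 lower (12.2% of the list, beside 10.7% of all genes), and none of 50 after 20 Gy at 12 days (0.0694% of all genes). There Rdh10, the retinol dehydrogenase that starts retinoic acid synthesis, fell by 1.67 with passage (edgeR adjusted p = 0.0334), from 13.8, 35.2, 39.4 and 17.2 CPM to 6.28, 8.31, 11.6 and 7.03 CPM. That call was lost without replicate 1, 2 or 4 (edgeR adjusted p up to 0.165). It held with the animal as a block (-1.58, edgeR adjusted p = 0.00339).

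In A. cahirinus 26 of 51 genes of the list were called for 20 Gy against passaged cultures, 14 higher and 12 lower (51% of the list, beside 42.5% of all genes). Aldh1a2, the third retinal dehydrogenase and the main source of retinoic acid in the embryo, was 6.76, 2.84, 5.77 and 6.8 CPM after 20 Gy and 0.309, 0.733, 0.558 and 0.0704 CPM in passaged cultures. It rose by 3.74 on the log2 scale (SE 0.56, edgeR adjusted p = 0.00135, higher in 4 of 4 animals). Untreated cultures had 0.271, 0.439, 0.241 and 0.259 CPM and those given 10 Gy 3.61, 2.71, 1.3 and 1.66 CPM. Every irradiated library was above every other 12-day library of A. cahirinus, and here replicate 2 was not apart after 10 Gy. In C56BL6 the same comparison gave a rise of 1.88 (edgeR adjusted p = 0.0392), with passaged cultures at 3.87, 0.963, 5.93 and 3.46 CPM and 13.03, 3.63, 21.7 and 14.9 CPM after 20 Gy; untreated cultures had 12.2, 5.31, 34.2 and 19.8 CPM, above the passaged ones in 4 of 4 animals. The C56BL6 call was lost without replicate 1, 3 or 4 (edgeR adjusted p up to 0.148). It held with the animal as a block (1.88, edgeR adjusted p = 1.39e-05).

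Receptors that pair with RXRs are part of the same list. In A. cahirinus Pparg, the fat-cell receptor that pairs with RXRs, was 4.89, 12.5, 5.24 and 4.15 CPM after 20 Gy at 12 days against 1.25, 2.31, 1.17 and 0.951 CPM untreated. This is a description, since this contrast chose Rxrg. The adipocyte marker sum given above was also higher after 20 Gy, and its part in Pparg was not tested. In the same contrast 19 of 52 genes of the list passed the threshold, 10 higher and 9 lower, where 31.8% of all genes did. Thra, a thyroid hormone receptor, fell by 1.20 with passage (edgeR adjusted p = 0.000604) and Vdr, the vitamin D receptor, by 1.30 (adjusted p = 0.000825 by edgeR), among 9 of 47 genes called, 4 higher and 5 lower (19.1% of the list, beside 25.8% of all genes). The largest called change of the list there was that of Rarres2, which had 8.36, 17.31, 6.59 and 6.97 CPM untreated and 0.502, 1.78, 0.837 and 0.317 CPM in passaged cultures, with no overlap. It fell by 3.52 on the log2 scale (SE 0.57, edgeR adjusted p = 0.00399, lower in 4 of 4 animals).

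Per length, the order of the retinoid genes differed between populations. In untreated A. cahirinus at 12 days Crabp2 led, followed by Crabp1 (252.3 ± 110.3 TPM), Rarg (67.9 ± 7.33 TPM), Aldh1a3 (32.9 ± 7.23 TPM) and Rxra (16.6 ± 1.66 TPM), each apart from its neighbour in all 4 libraries, with Cyp26b1 and Rarb overlapping below and Rxrg last at 0.498 ± 0.202 TPM (SD, n = 4). In untreated C56BL6 at that time Aldh1a1 led at 174.7 ± 29.2 TPM, above Rarg (109 ± 18.2 TPM), Rxra and Crabp1, of which neighbours overlapped. In untreated wild mice Rarg led at 111 ± 16.5 TPM, apart from Rxra at 62.3 ± 9.28 TPM, and the next 4 genes overlapped in turn.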

How the data were processed

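The 84 libraries are polyadenylated RNA from stranded mRNA libraries, per the labels' protocols. The authors deposited raw counts per gene, made with featureCounts 2.0.3 per the file headers, on GRCm39 with Ensembl 108 gene identifiers for mouse and on AcoCah2 by gene name for A. cahirinus. Trim Galore and HISAT2 are named in the submitters' processing notes. The headers record no strand option, so reads of overlapping antisense genes cannot be told apart. The other deposited columns (coordinates, strand and gene length) were used for positions and TPM.

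Tests used edgeR 4.0.16 (R 4.3.3) on the counts as deposited: filterByExpr, TMM scaling, the quasi-likelihood test and Benjamini-Hochberg adjustment over all tested genes, with a threshold of 0.05. Each comparison was fitted on its own 2 groups, interactions on 4. The SE of a log2 fold change is its size divided by the square root of F. Alternatives were DESeq2 1.42.0, RLE scaling, no filter, the animal as a block, a single fit over every group sharing population and time, and leaving out each replicate. The procedure without the block was run on simulated data with 2 groups, no animal effect and changes only in well-counted genes. That run does not bear on the animal as a block or on genes with few counts. Same-numbered libraries share an animal code in the library names, and their deviations from the group means correlated above 0.1 in every pair, so the numbers pair the samples. Whether animals were cultured separately is not stated beyond those codes. Counts span 17.42 to 52.86 M per library, and 3 counts are 0.0568 to 0.1722 CPM, which covers counting error only.

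The members and gene lists were chosen with earlier results of these data known. The named genes are the members, the 5 genes most like Rxrg, and, from the pathway list, some of the up to 4 genes a comparison with the largest called changes. Pathway examples and marker lists support no claim of their own. Marker lists covered fibroblast, skeletal muscle, Schwann cell and melanocyte, keratinocyte, adipocyte, endothelial, immune and mural cells.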

Additional observations from a re-analysis of the deposited data

Results flagged for a closer look

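Of 173 groups of 4 libraries examined, 34 held a highest or lowest value that lay far from the other 3 by Dixon's test at the 95% level; chance flags about 1 in 20 groups, and the members share libraries. Every A. cahirinus library among them was replicate 2. It was the highest in Aldh1a3 in all 7 groups, with 146.9, 169.4 and 161.8 CPM at 24 h (untreated, 10 Gy, 20 Gy) and 120.5, 58.30, 103.7 and 116.2 CPM at 12 days (passaged, untreated, 10 Gy, 20 Gy). It was also the highest in Crabp1, with 77.15 CPM after 20 Gy at 24 h and 130.8, 87.78 and 80.91 CPM at 12 days (untreated, 10 Gy, 20 Gy), in Rarb with 3.1 CPM after 20 Gy at 24 h, and in Cyp26b1 with 29.94 CPM untreated at 12 days. Its Crabp2 was the lowest, with 63.40 CPM untreated and 91.13 CPM after 10 Gy at 24 h and 92.67 CPM in the passaged culture.

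In C56BL6 replicate 1 was the highest in Crabp2, with 10.91, 13.55 and 12.87 CPM at 24 h (untreated, 10 Gy, 20 Gy) and 16.92 CPM in the passaged culture. It was the highest in Cyp26b1, with 55.61 CPM after 10 Gy and 78.11 CPM after 20 Gy at 12 days, and the lowest in Rxra, with 75.39 and 73.29 CPM in the same 2 groups. C56BL6 replicate 2 was the highest in Rarb after 10 Gy (2.28 CPM) and in Aldh1a1 after 20 Gy (125.8 CPM) at 24 h.

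In wild mice replicate 3 was the highest in Rarb, with 3.11 CPM after 10 Gy at 24 h and 4.21 CPM untreated and 3.61 CPM after 10 Gy at 12 days. After 20 Gy at 12 days it was the highest in Aldh1a1 (71.85 CPM) and the lowest in Cyp26b1 (9.35 CPM). Wild replicate 4 was the highest in Aldh1a3 at 24 h, with 9.91 CPM untreated and 11.27 CPM after 10 Gy, and the only library of its group with an Rxrg count after 20 Gy at 24 h (0.0318 CPM).

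In 8 cases all 4 animals of one population moved one way and all 4 of another the opposite way; these differences were not tested in this form. After 10 Gy at 24 h the log2 fold change in wild mice exceeded that in C56BL6 by 1.99 for Crabp1 and 0.68 for Aldh1a3, and after 20 Gy by 1.22 and 1.05. That of Aldh1a3 in A. cahirinus exceeded that in C56BL6 by 0.66 after 10 Gy at 24 h, and for 20 Gy against passaged cultures at 12 days the difference was -0.87. For Rxra after 10 Gy at 12 days A. cahirinus exceeded C56BL6 by 0.72 and wild mice by 0.39, where the A. cahirinus values are a description.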

How the results depend on the processing

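No gene result called with or without the block changed direction under any alternative. Some called in neither fit did with the block, such as Crabp2 with passage in C56BL6 (0.10 to -1.25) and Cyp26b1 after 20 Gy in wild mice at 12 days (-0.11 to 0.16). The counts of called retinoid genes stayed within 1.5 times with RLE scaling and with no filter on low counts. With the animal as a replicate block they became 2 and 7 in C56BL6 at 24 h (10 and 20 Gy), 3 after 10 Gy and 2 for 20 Gy against passaged cultures at 12 days; 3 in wild mice after 20 Gy at 24 h, and 1, 1, 3 and 4 at 12 days (10 Gy, 20 Gy, passage, 20 Gy against passaged); 3 and 3 in A. cahirinus at 24 h, and 4 and 6 at 12 days (passage, 20 Gy against passaged). The blocked interactions gave 5 and 3 (24 h, A. cahirinus against C56BL6 and wild) and 4 and 2 (passage). The block changed the call of 50 single-gene results, each to past the threshold, and the other 14 kept their call. With DESeq2 the counts were 2 for C56BL6 after 10 Gy at 12 days, 3 for wild passage, 3 for wild 20 Gy against passaged, and 1 for the passage interaction of A. cahirinus against C56BL6. With every group of the same population and time fitted together they were 2 for C56BL6 after 10 Gy at 12 days and 0 for A. cahirinus passage. The cause was not tested.

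Leaving out 1 replicate gave, in C56BL6 at 12 days, 0 to 3 (10 Gy), 0 to 5 (20 Gy), 1 to 6 (passage) and 0 to 3 (20 Gy against passaged). In wild mice it gave 0 to 1 for passage and 0 to 3 for 20 Gy against passaged. In A. cahirinus it gave 0 to 1 at both doses at 24 h, 0 to 2 for passage and 2 to 7 for 20 Gy against passaged. Between untreated wild and C56BL6 cultures it gave 1 to 2 at 24 h and 0 to 2 at 12 days, and for the passage interaction of A. cahirinus against C56BL6 0 to 4. All other counts were 0 with any replicate left out. The share of all genes called is not given for these fits, nor for DESeq2 or the single fit over all groups. Nothing particular to the retinoid genes is read from these counts. Rxrg in mice lies at or under 3 counts in most libraries, which limits it by depth.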
